A study of Ambystoma mexicanum with 7 samples.

Results

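A block of 40 Mb on the long arm of axolotl chromosome 6, arm 6q, was examined for accessible chromatin in 3 groups of limb cells. Its members are the peaks of 4 lists that lie on segment 3 of the arm with a start at or after 360 Mb and an end at or before 400 Mb, counted within the segment. The block held 614 of 168368 blastema peaks, 96 of 17326 systemically activated peaks, 165 of 25843 intact peaks and 1286 of 491444 all-sample peaks, or 2161 members in all. The block was chosen by its number of intact peaks relative to the other lists. Numbers of peaks, and overlaps and read depths between these lists, are therefore given as descriptions with no test.

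The axolotl, Ambystoma mexicanum, is a salamander that regrows lost limbs from a blastema, a growth of progenitor cells under a wound epidermis. After an amputation, cells in limbs that were not cut also re-enter the cell cycle, which is called systemic activation. ATAC-seq marks open DNA with the Tn5 transposase, and a peak is a stretch where inserted fragments pile up over the background. Open stretches include promoters and enhancers, where proteins that control transcription bind. In bulk libraries a site open in fewer cells and a site less open in each cell cannot be told apart.

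The 7 wild-type samples were 2 of blastema with wound epidermis, 2 of systemically activated limb tissue and 3 of intact limb tissue. Each came from 10000 live cells sorted for a 4C DNA content, that of cells with a copied genome. The series design names 14 days after amputation for activated and homeostatic limbs, while no label gives a day for the blastema. The labels do not say which animals the samples came from. The files hold 1 peak list per group and 1 for all samples, so no value belongs to a single sample and no spread between replicates was available. Intervals below are exact 95% intervals over peaks, cover counting error only and take neighbouring peaks as independent. Depth differed: the lowest background on arm 6q, which moves with the reads behind a list, was 2.49 fragments in the blastema list, 0.375 in the activated list, 0.529 in the intact list and 4.22 in the all-sample list. The 3 group values add up to less than the all-sample value, so this background is only a rough guide to depth. The reason was not tested. No genome or annotation of the files' build was at hand, so genes and sequences at the peaks were not analysed here.

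The block was dense in every list. It spans 2.46% of the arm up to the arm's last peak, and it held 7.83% of the arm's blastema peaks (95% interval 7.25 to 8.45), 13.0% of its activated peaks (10.7 to 15.7), 14.3% of its intact peaks (12.3 to 16.4) and 5.07% of its all-sample peaks (4.80 to 5.34). Blastema peaks stood at 15.4 per Mb in the block and 4.55 per Mb over the rest of the arm, a ratio of 3.37. Activated peaks stood at 2.40 per Mb in the block and 0.403 per Mb over the rest, a ratio of 5.95. Intact peaks stood at 4.13 and 0.625 per Mb, a ratio of 6.60. All-sample peaks stood at 32.2 and 15.2 per Mb, a ratio of 2.12. As deposited, the excess in the block was thus larger in both limb lists than in the blastema and all-sample lists. The bases covered by peaks went the same way: 7.69 kb per Mb in the block and 1.91 kb per Mb over the rest in blastema, 0.999 and 0.149 kb per Mb in activated limb, and 1.91 and 0.248 kb per Mb in intact limb. This order depends on list length. Among the 17326 strongest peaks of each group list, the block held 134 blastema peaks and the rest of the arm 613. For intact peaks these numbers were 127 and 634, and for activated peaks 96 and 640. The excess was then not larger in the limb lists than in the blastema list. If the number in the segment's name is its first base on the arm, the block lies between 1580 and 1620 Mb of an arm whose last peak ends at 1626 Mb.

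**Figure D1:**
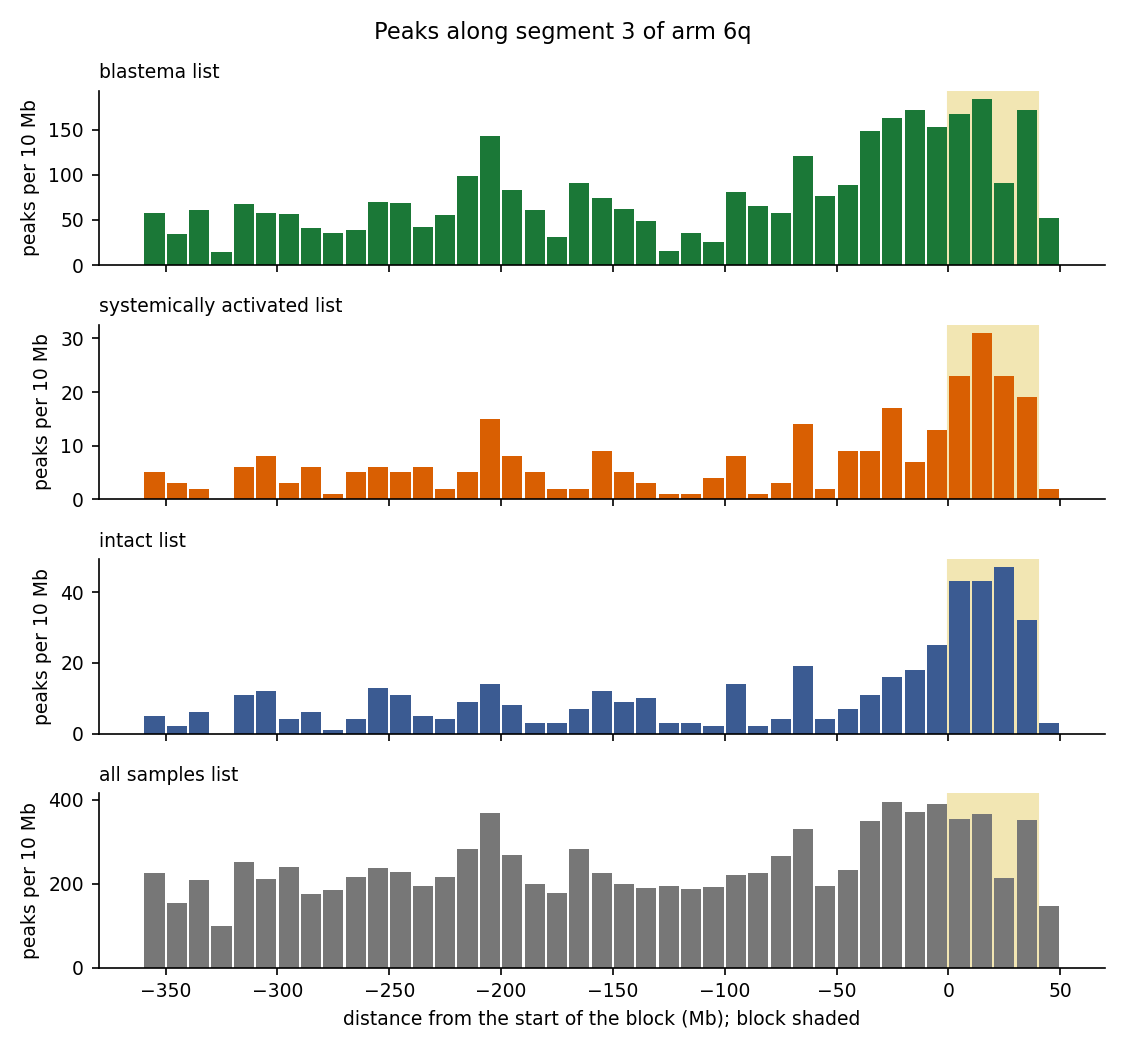
Number of peaks per 10 Mb along segment 3 of arm 6q in each of the 4 lists, against the distance from the start of the block, which is shaded. The last bar covers only the 6.06 Mb up to the last peak. Intact peaks number 32 to 47 per 10 Mb in the block and 25 or fewer elsewhere on the segment.

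As deposited, the DNA before the block had about as many blastema peaks and fewer limb peaks. The 40 Mb of the segment just before it held 636 blastema, 46 activated, 70 intact and 1509 all-sample peaks. Densities in the block were 0.965 times those of this stretch for blastema and 0.852 times for all-sample peaks, against 2.09 times for activated and 2.36 times for intact peaks. Among the 17326 strongest peaks of each group list, this stretch held 60 blastema, 46 activated and 49 intact peaks. The block then held 134, 96 and 127, so strong blastema peaks were also fewer before the block. At a fold of at least 5 blastema peaks numbered 86 before the block and 159 in it. Intact peaks already grew in number before the edge, with 11, 16, 18 and 25 in the 4 stretches of 10 Mb up to 360 Mb. The 4 stretches of the block held 43, 43, 47 and 32. Activated peaks numbered 9, 17, 7 and 13 before the edge, and 23, 31, 23 and 19 in the block. In steps of 5 Mb across the edge, intact peaks numbered 12, 13, 19 and 24, so the boundary at 360 Mb is not a sharp one. In the 6.06 Mb from the block's end to the last peak there were 52 blastema, 2 activated and 3 intact peaks. Blastema peaks there stood at 8.58 per Mb, so that the block's density was 1.79 times as high. The preceding 40 Mb were taken for comparison after the counts were seen.

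As deposited, the lists had fewer blastema peaks per limb peak in the block than over the rest of the arm. There were 3.72 blastema peaks per intact peak in the block (3.13 to 4.45), against 7.28 over the rest of arm 6q (6.81 to 7.79) and 6.52 over the whole lists. The activated list moved with the intact list, with 6.40 blastema peaks per activated peak in the block (5.15 to 8.02) and 11.3 over the rest (10.4 to 12.3). There were 58.2 activated peaks per 100 intact peaks in the block (44.8 to 75.3), against 64.5 over the rest (58.3 to 71.3) and 67.0 over the whole lists. Against activated limb the interval of the block covers the values of the rest of the arm and of the whole lists. The block was chosen on such counts, so they do not test its description as leaning to intact limb. As deposited, both limb lists were rich there relative to the blastema list, and some other settings change this.

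Among 527 windows of 40 Mb with at least 20 intact peaks, tiled over all arms, the block had the 3rd most intact peaks, the 4th most activated, the 12th most blastema and the 32nd most all-sample peaks. Its number of blastema peaks per intact peak was the 11th lowest, where the middle window had 6.53 and 5.12% of windows were at least 1.5 times below the value over all arms. Its number of activated peaks per 100 intact peaks was the 125th lowest, where the middle window had 66.7 and 2.28% of windows were at least 1.5 times below. Of the 30 such windows on arm 6q, the block had the fewest blastema peaks per intact peak, and the others had 4.80 to 12.7. For activated peaks per 100 intact peaks the others on the arm ran from 42.9 to 87.5, on both sides of the block.

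**Figure D2:**
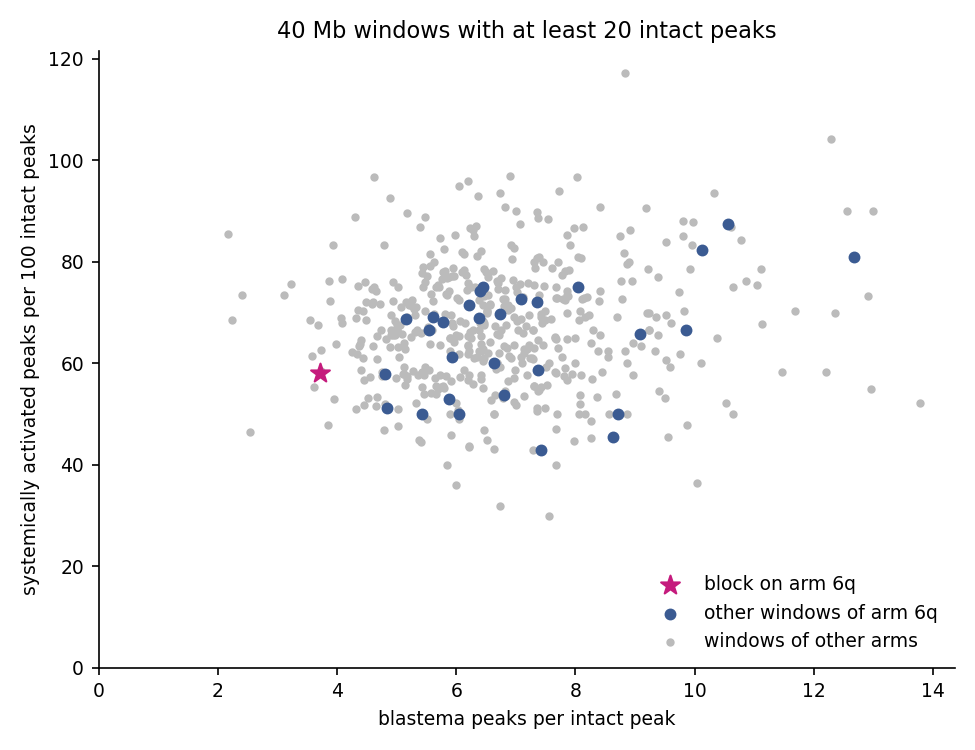
Windows of 40 Mb with at least 20 intact peaks, by blastema peaks per intact peak (horizontal) and activated peaks per 100 intact peaks (vertical). The block is the star at 3.72 and 58.2, at the left edge of the windows of its arm and within their range from bottom to top.

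The lower number of blastema peaks per intact peak was not seen at equal list length or at a fold of at least 5. It was seen from a −log10 q of 5 upward and with near peaks merged. With each group list reduced to its 17326 strongest peaks by −log10 q, the length of the shortest list, the block held 134 blastema, 96 activated and 127 intact peaks. That gave 1.06 blastema peaks per intact peak in the block (0.822 to 1.36) and 0.967 over the rest of the arm (0.864 to 1.08). At a fold of at least 5, where fold is the pileup at a peak's summit over its background, the values were 1.20 (0.944 to 1.52) in the block and 0.972 (0.865 to 1.09) over the rest. That cut kept 25.9% of the block's blastema peaks and 80.6% of its intact peaks, so it shortens the lists unequally. At equal length and at this fold the block lay on the blastema side of the rest of the arm, with overlapping intervals. The preceding 40 Mb had 1.22 (0.826 to 1.82) at equal length and 1.62 (1.14 to 2.33) at a fold of at least 5. Against them the block lay on the intact side, again with overlapping intervals. The value of 1.62 lies outside the block's interval. Among peaks with a −log10 q from 5 upward the block had 2.84 (2.29 to 3.55), and the rest of the arm 4.51 (4.11 to 4.97). With near peaks merged the values were 3.63 (3.02 to 4.37) and 7.15 (6.68 to 7.67). In these 2 settings the intervals do not overlap. The block was chosen on such counts, so this is a description and no test of a difference. At equal length there were 75.6 activated peaks per 100 intact peaks in the block (57.4 to 99.3) and 101 over the rest of the arm (90.3 to 113). The rest's value lies outside the block's interval, while the 2 intervals overlap. In that setting, then, the block differed more from the rest in activated than in blastema peaks per intact peak, the reverse of the lists as deposited. In the other settings the block was also on the intact side of activated limb, with overlapping intervals: 58.2 against 64.5 as deposited, 58.4 against 63.7 among peaks with a −log10 q from 5 upward, 65.4 against 79.5 at a fold of at least 5, and 62.0 against 64.1 with near peaks merged.

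**Figure D3:**
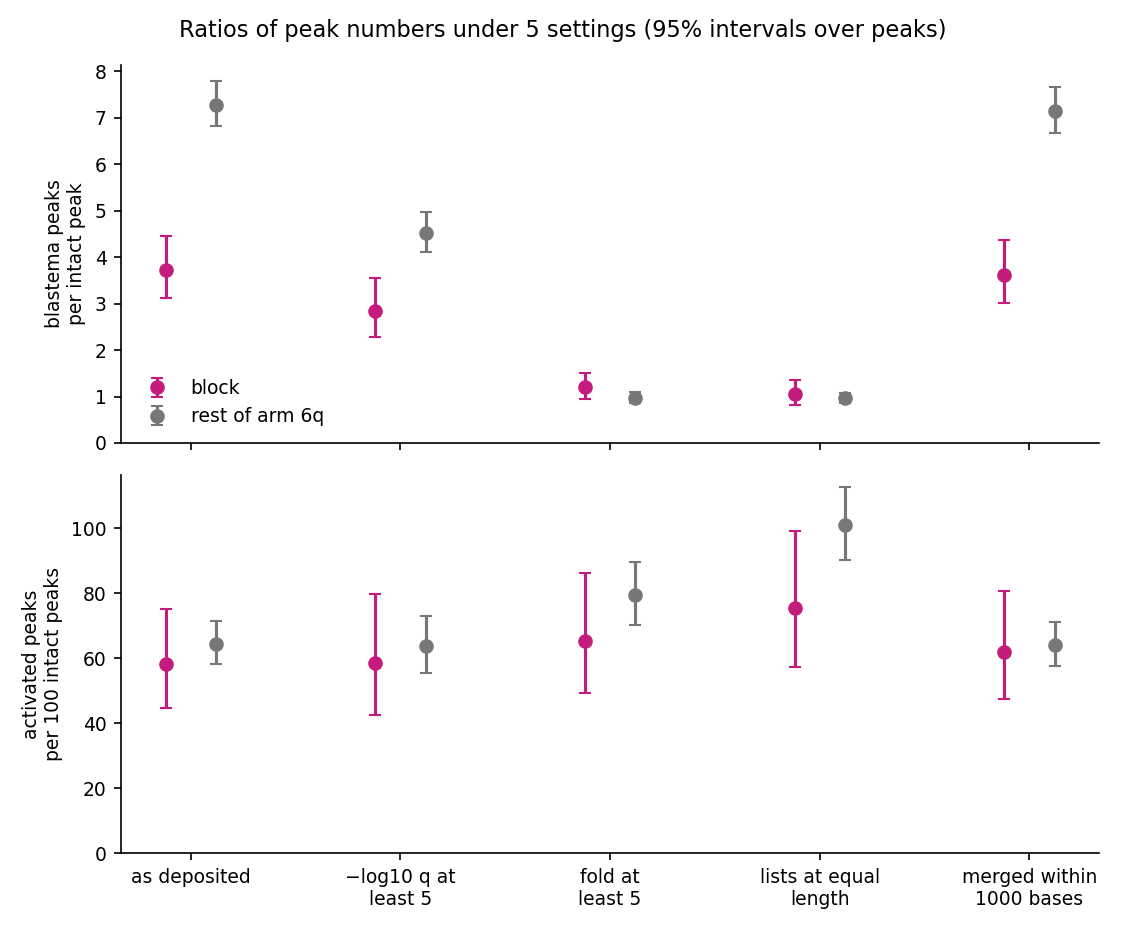
Blastema peaks per intact peak (top) and activated peaks per 100 intact peaks (bottom) in the block and over the rest of arm 6q under 5 settings, with exact 95% intervals over peaks. The top pairs come together at a fold of at least 5 and at equal list length, where the block has 1.20 and 1.06, and the bottom pairs overlap throughout.

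Nearly all limb peaks of the block were shared with another list. All 96 activated peaks were overlapped by a blastema peak by at least 1 base, a share of 100% (96.2 to 100), so 0 were without one, where 6.13% of the whole activated list was without one. An intact peak overlapped 92 of the 96, or 95.8% (89.7 to 98.9), against 73.9% (70.3 to 77.3) over the rest of the arm, and 4 were without one, where 24.1% of the whole list was. A blastema peak overlapped 161 of 165 intact peaks, or 97.6% (93.9 to 99.3), against 87.7% (85.5 to 89.7) over the rest, and 4 were without one, where 10.1% of the whole list was. These 3 shares were all above those of the rest of arm 6q. Intact peaks met an activated peak in 91 of 165 cases, or 55.2% (47.2 to 62.9), against 46.7% (43.5 to 49.8) over the rest, and 74 were without one, or 44.8%, where 49.8% of the whole intact list was. By peak, then, the block did not hold more intact peaks without an activated counterpart than the lists as a whole.

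Seen from the blastema list, 93 of 614 peaks, or 15.1% (12.4 to 18.2), met an activated peak, against 7.60% over the rest of the arm, and 521 did not, where 90.8% of the whole list did not. An intact peak met 151, or 24.6% (21.2 to 28.2), against 11.4% over the rest, and 463 were without one, where 86.8% of the whole list was. Sites of all 3 groups were more frequent in the block: 89 of 1286 all-sample peaks, or 6.92% (5.59 to 8.45), were overlapped by all 3 group lists, against 1.86% (1.70 to 2.04) over the rest. A further 62, or 4.82%, were overlapped by blastema and intact peaks, against 1.56% over the rest. Blastema and activated peaks overlapped 4, or 0.311%, against 0.440%. Blastema peaks alone overlapped 426, or 33.1%, against 23.5%. Intact peaks alone overlapped 2, or 0.156%, against 0.357%. No site of the block was held by the activated list alone or by the limb lists without blastema. Such sites were rare over the rest too, at 0.141% and 0.00415%. The other 703 all-sample peaks, or 54.7% (51.9 to 57.4), met no group list, against 72.2% (71.6 to 72.7) over the rest.

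Blastema peaks of the block were strong, and limb overlaps go with strength. Of the 614, 206 or 33.6% (29.8 to 37.4) fell in the strongest of 5 equal classes of the blastema list by −log10 q, which starts at 7.74, against 16.9% (16.1 to 17.8) over the rest of the arm and 19.0% (16.0 to 22.3) in the preceding 40 Mb. In that class an intact peak overlapped 65.5% (58.6 to 72.0) of the block's blastema peaks, against 53.0% (50.1 to 55.8) over the rest and 42.1% (33.2 to 51.5) in the preceding 40 Mb. An activated peak overlapped 44.2% (37.3 to 51.2) in the block, against 39.2% (36.5 to 42.0) over the rest and 31.4% (23.3 to 40.5) in the preceding 40 Mb. In the next class the values for intact peaks were 10.0% (5.43 to 16.5) in the block and 8.17% (6.76 to 9.77) over the rest, and in the 3 weakest classes intact overlaps numbered 3 of 278 in the block. Had the rest of the arm held the block's mix of classes, its share with an intact overlap would be 20.2% in place of 11.4%, beside 24.6% in the block, and its share with an activated overlap 14.1% in place of 7.60%, beside 15.1%. Strength of the blastema peaks thus moved with both shares, and its part in them was not tested further.

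**Figure D4:**
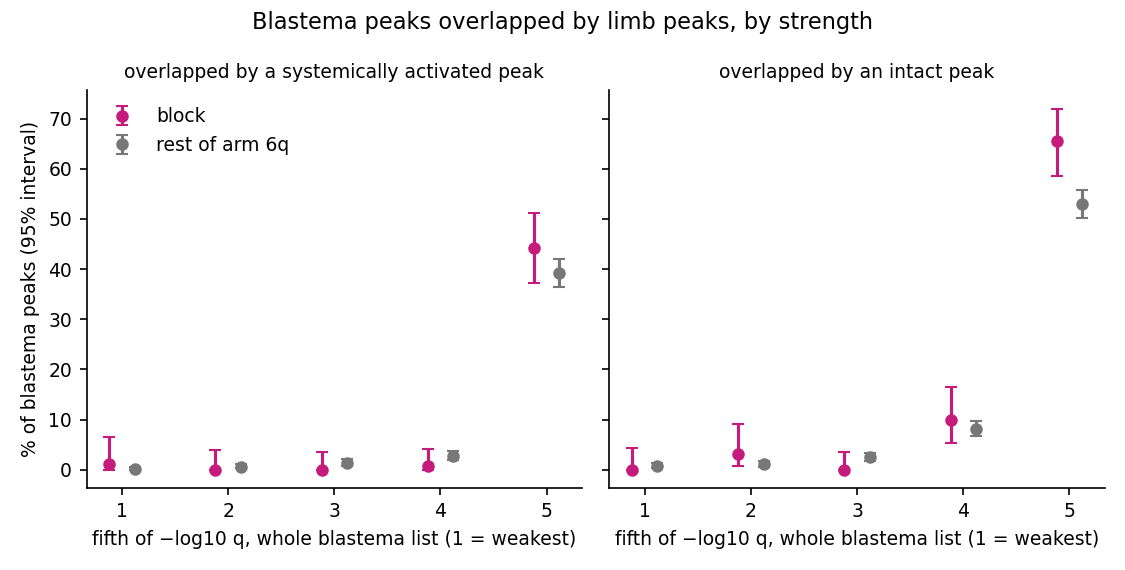
Share of blastema peaks overlapped by an activated peak (left) and by an intact peak (right) in 5 classes of −log10 q of the whole blastema list, in the block and over the rest of arm 6q, with exact 95% intervals. The overlaps sit almost wholly in the strongest class, at 65.5% in the block and 53.0% over the rest for intact peaks.

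The activated peaks of the block showed the high intact overlap also when weak. In the weakest of 3 classes of the activated list by −log10 q, an intact peak overlapped 17 of 20, or 85.0% (62.1 to 96.8), in the block, against 50.2% (43.4 to 57.0) over the rest of the arm. In the middle class it was 27 of 28, against 75.1% (68.8 to 80.7), and in the strongest 48 of 48, against 98.0% (95.1 to 99.5). The reverse was not seen for intact peaks: an activated peak overlapped 15.4%, 40.9% and 81.7% of the weakest, middle and strongest classes in the block, against 17.0%, 44.3% and 83.9% over the rest. The higher total for intact peaks, 55.2% against 46.7%, therefore came with more peaks in the strongest class, 82 of 165 in the block and 310 of 992 over the rest. A blastema peak overlapped 89.7% (75.8 to 97.1) of the weakest intact class in the block, against 74.5% (69.6 to 78.9) over the rest. In the middle class it was 100% against 91.2%, and in the strongest 100% against 99.7%. The total share with a blastema overlap thus also moved with strength.

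By median, peaks of the block were wider and stood higher above background in all 4 lists. The median width was 380 bases in the block and 319 over the rest of the arm for blastema peaks, 381 and 319 for activated peaks, 434 and 333 for intact peaks, and 356 and 303 for all-sample peaks. For intact peaks the interval of the median was 371 to 473 bases in the block and 321 to 349 over the rest. For activated peaks these intervals overlap, at 325 to 477 and 302 to 341 bases. The median fold was 3.98 and 3.61 for blastema, 6.76 and 5.63 for activated and 6.17 and 5.23 for intact peaks. In the preceding 40 Mb it was 3.75, 6.39 and 5.66, so a median fold above that of the rest was not particular to the block. Folds move with depth and are compared only within a list. Blastema peaks of at least 1000 bases made up 9.93% (7.68 to 12.6) in the block and 5.30% (4.80 to 5.84) over the rest.

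The fold could be split into whole fragments at the summit and a background. Fragments here are the units that the peak caller piled up. The lists do not say whether these were sequenced fragments or reads extended to a fixed length. Blastema summits had a median of 24 fragments over a background of 5.20 in the block, and 19 over 4.72 in the rest of the arm. Activated summits had 14 fragments in both, over 1.19 in the block and 1.62 in the rest. Intact summits had 17 over 1.72 in the block, and 15 over 2.03 in the rest. The higher fold of the limb lists thus went with a lower background in the block, and for intact peaks also with a higher median of fragments. The blastema background in the block was higher than over the rest. A low limb background was not particular to the block. In the preceding 40 Mb the median background was 4.34 for blastema, 1.29 for activated and 1.47 for intact peaks, each below the rest.

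At shared sites the blastema read depths did not lean as the counts of the deposited lists did. Where a blastema peak met an intact peak, the blastema summit had a median of 2.92 times the intact fragments in the block (2.76 to 3.15, 161 pairs) and 2.82 times over the rest of the arm (2.77 to 2.88, 870 pairs). Against activated summits it was 4.06 times in the block (3.78 to 4.41, 96 pairs) and 3.59 times over the rest (3.50 to 3.70, 586 pairs). Against intact summits the block's interval contains that of the rest, so no lean is shown. Against activated summits the block lay to the blastema side, with intervals apart. The deposited count of blastema peaks per limb peak was lower in the block for both limb lists. Activated over intact fragments were 0.750 in the block (0.682 to 0.786, 91 pairs) and 0.792 over the rest (0.773 to 0.818, 463 pairs), slightly to the intact side with overlapping intervals. These ratios carry the difference in depth between lists, which is the same in both regions, and cover only sites that both lists called. Summits were a median of 77 bases apart between blastema and intact peaks in the block (61 to 101) and 97 bases over the rest (88 to 112). Between activated and intact peaks they were 104 (46 to 141) and 86 bases (70 to 104) apart.

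Within the block, megabases rich in blastema peaks were not always rich in limb peaks. The 40 single megabases held 3 to 54 blastema peaks with a median of 13, 0 to 6 activated peaks with a median of 2, and 0 to 9 intact peaks with a median of 4. From 373 to 374 Mb there were 54 blastema peaks with 1 activated and 2 intact peaks. The 3 Mb before it held only 24 blastema peaks, with 16 activated and 17 intact peaks. The blastema list thus peaked right beside a stretch where limb peaks were frequent and blastema peaks few. From 380 to 390 Mb blastema peaks numbered 91, against 167, 184 and 172 in the other stretches of 10 Mb, while intact peaks numbered 47 and activated peaks 23. This stretch had 1.94 blastema peaks per intact peak (1.35 to 2.82), against 3.88, 4.28 and 5.38 in the others. The megabase of most intact peaks, from 387 to 388 Mb, held 9 intact, 3 activated and 9 blastema peaks. These stretches were picked for their counts.

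**Figure D5:**
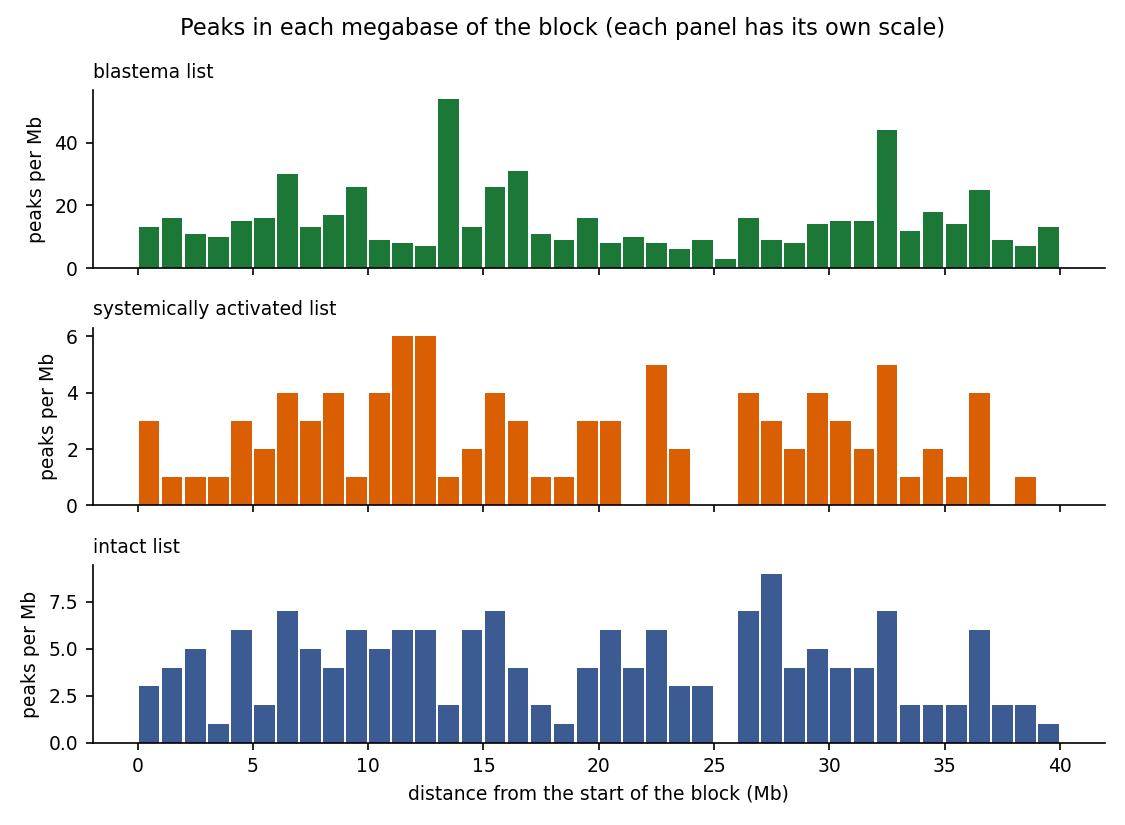
Peaks in each of the 40 megabases of the block in the blastema, activated and intact lists, against the distance from the block's start, each panel with its own scale. The tall blastema bar of 54 peaks at 13 Mb stands over low bars of the limb lists, and the megabase from 25 to 26 Mb has 3 blastema peaks and none of either limb list.

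A stretch with no peak of any group list lay within the block. From 385216879 to 386019381, positions here and below being 1-based within segment 3 of arm 6q, no group list had a peak over 0.803 Mb, and the all-sample list had 23. The intact list had no peak from 384671200 to 386088097, 1.42 Mb, where there were 8 blastema and 55 all-sample peaks. The activated list had none from 383375971 to 386088538, 2.71 Mb, where there were 16 blastema and 4 intact peaks. These were the longest gaps of the 3 group lists, and they overlap. The all-sample list was not sparse there. It had 33 peaks from 385 to 386 Mb, where the block's median megabase had 31.5.

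At a fixed joining gap of 10 kb, blastema peaks came in clusters, and limb peaks mostly singly. Such a gap joins more peaks in a denser list, so this contrast cannot be told apart from list length. With peaks joined where at most 10 kb apart, 329 of 614 blastema peaks lay in 124 clusters, against 6 of 96 activated peaks in 3 clusters and 35 of 165 intact peaks in 17 clusters. Gaps of at most 10 kb made up 33.4% of blastema gaps in the block and 17.3% over the rest of the arm, where blastema peaks were less dense. In the preceding 40 Mb, about as dense in blastema peaks as the block, such gaps made up 26.6%. For activated peaks they made up 3.16% in the block and 8.53% over the rest, and for intact peaks 11.0% and 8.22%. The 9 blastema clusters of at least 5 peaks, 19.0 to 44.3 kb long, held 57 blastema, 4 activated and 9 intact peaks. They were picked for their blastema peaks. Blastema peaks per intact peak were 3.72 in the block, 7.28 over the rest of the arm and 6.52 over the whole lists. Per activated peak they were 6.40, 11.3 and 9.72. The longest ran from 375259070 to 375303342 with 9 blastema, 1 activated and 2 intact peaks. Another 9 blastema peaks lay from 366169710 to 366204337, again with 1 activated and 2 intact peaks. Of the 17 intact clusters, 15 spanned under 2 kb, and 11 of these 15 were several intact peaks within 1 blastema peak. Several called peaks there stand for 1 open stretch of the blastema list.

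By fold, the leading blastema and intact sites of the block were a pair 11118 bases apart. By −log10 q other sites led. The highest blastema value was 59.9, against 50.8 and 54.8 at the pair, and the highest intact value 25.6, against 21.3 and 21.5. At the first, blastema had a peak from 386446314 to 386446735 with 57 fragments at the summit and a fold of 16.6, activated limb one from 386446369 to 386446710 with 20 fragments and a fold of 13.6, and intact limb one from 386446314 to 386446687 with 23 fragments and a fold of 13.6. At the second, blastema had a peak from 386457854 to 386458366 with 60 fragments and a fold of 17.5, activated limb one with 9 fragments and a fold of 7.27, and intact limb one from 386457877 to 386458240 with 22 fragments and a fold of 14.0. Blastema and intact limb thus had near-equal summits at the 2 sites, while the activated list had fewer fragments at the second than at the first. With no replicate, 9 against 20 fragments cannot be set against a spread.

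The next blastema peaks by fold were also sites of all 3 groups. The peak from 360346486 to 360347330 had 48 blastema, 10 activated and 7 intact fragments, with a blastema fold of 11.4. That from 396133686 to 396134658 had 73 blastema and 10 activated fragments and held 2 intact peaks, with folds of 8.02 and 6.80, the weaker with 13 fragments and its summit 486 bases from the blastema summit. That from 389041986 to 389042729 had 90, 15 and 22 fragments. The first of these had fewer intact than activated fragments, at low counts in both.

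After the pair, the intact peaks of highest fold had fewer activated than intact fragments. The site from 365177274 to 365177897 had 62 blastema, 12 activated and 30 intact fragments, with an intact fold of 12.0. The site from 388133735 to 388134237 had 51, 9 and 23 fragments, with an intact fold of 11.2. The site from 379753819 to 379754395 had 79, 22 and 29 fragments, with an intact fold of 11.0. Ranking by the intact fold favours sites high in that list, and the block's median over shared sites was 0.750 activated per intact fragment. Only the first site of the pair was among the activated list's 5 peaks of highest fold. Of the others, most had more activated than intact fragments, and ranking by the activated fold favours such sites. The site from 390442029 to 390442299 had 57 blastema, 27 activated and 24 intact fragments, with an activated fold of 11.8. The site from 396862452 to 396863009 had 65, 26 and 20 fragments, and the site from 393199720 to 393200191 had 73, 21 and 13. At the site from 360534329 to 360534893 activated and intact limb had 24 fragments each, and blastema 55.

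The 74 intact peaks with no activated overlap were led by narrow sites that blastema shared. The first by fold ran from 379350130 to 379350388, with 13 intact fragments over a background of 0.529, a fold of 9.16, and a blastema peak of 35 fragments. The next ran from 364001816 to 364002024 (fold 8.54), from 362715707 to 362715933 (fold 7.96), from 367566289 to 367566692 (fold 7.79) and from 377501073 to 377501431 (fold 7.72). Their nearest activated peaks were 151999 to 443356 bases away, and all 5 were overlapped by a blastema peak. They had 11 to 20 fragments, in the range of the shared sites above.

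The few limb peaks without these overlaps had folds below their list's median in the block. The 4 activated peaks with no intact overlap ran from 363789086 to 363789285 (fold 6.18), from 378790506 to 378790705 (fold 5.26), from 392705176 to 392705375 (fold 5.11) and from 394319166 to 394319375 (fold 5.00). They were 200 to 210 bases wide with 7 to 10 fragments, where the narrowest activated peak of the block was 200 bases, and a blastema peak overlapped each. The 4 intact peaks with no blastema overlap had 6 to 13 fragments and no activated overlap. They ran from 374370105 to 374370304 (fold 5.23), 90 bases from a blastema peak, from 374640793 to 374640992 (fold 5.13), from 393932117 to 393932379 (fold 4.96) and from 369324800 to 369325034 (fold 3.76). The last had the lowest −log10 q of the block's intact peaks, 1.34. The peak of fold 4.96 was the only intact peak of the block with no all-sample overlap.

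No peak of either limb list overlapped 459 of the 614 blastema peaks, or 74.8% (71.1 to 78.1). The 5 of these with the highest folds had 7.75 to 8.01, where all 614 had a median of 3.98 and a highest fold of 17.5. They lay from 379183276 to 379183595 and from 381488302 to 381488524 (fold 8.01 and 27 fragments each), from 380938374 to 380938640 (fold 7.97, 39 fragments), from 391096425 to 391096716 (fold 7.82, 37 fragments) and from 363212195 to 363212686 (fold 7.75, 30 fragments). The third was 282 bases from an intact peak, and the others were at least 133807 bases from any limb peak. Over the rest of the arm 87.2% (86.4 to 88.0) of blastema peaks had no limb overlap.

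The widest peaks were not the strongest by fold. The widest blastema peak, from 375259070 to 375261297, was 2228 bases wide with a fold of 3.44. It opens the longest blastema cluster and matches the widest all-sample peak, 2280 bases. The widest activated peak, from 369771735 to 369772894, and the widest intact peak, from 369771821 to 369772962, were the same site, 1160 and 1142 bases wide. There 101 blastema, 35 activated and 49 intact fragments lay at the summits, the most of any blastema or intact peak in the block.

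Peaks beside the edges had folds on both sides of the block's medians. At 360 Mb the last blastema peak outside ended at 359939471 with a fold of 4.46, and the first inside began at 360090851 with a fold of 3.05. The last activated peak outside ended at 356926790 with a fold of 10.6, well above the block's median of 6.76, and the first inside began at 360225088 with a fold of 6.01. The last intact peak outside ended at 359939780 with a fold of 5.71, and the first inside began at 360225015 with a fold of 6.22. At 400 Mb the last blastema peak inside ended at 399957678 with a fold of 3.79, and the first outside began at 400007668 with a fold of 3.87. The last activated peak inside ended at 398109374 (fold 6.99) and the first outside began at 401945264 (fold 7.22). The last intact peak inside ended at 399866575 (fold 4.61) and the first outside began at 401945241 (fold 5.94). No peak of any list crossed an edge.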

How the data were processed

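Per the submitters' processing notes, alignment was by Bowtie2 2.3.2 and peak calling by MACS2. The version of MACS2, the build, filters and any control library are not stated by a label or header. Per the labels, each of the 3 group lists and the all-sample list pools its samples. Per peak the authors deposited a start, an end, a summit offset, a score (10 times the −log10 q without decimals, not used), a fold (ratio of pileup plus 1 to background plus 1 at the summit), a −log10 p and a −log10 q.

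Peaks overlapped when sharing at least 1 base, and of several overlapping peaks of a list the one sharing most bases gave the paired values. Shares and ratios of counts have exact (Clopper-Pearson) 95% intervals, medians order-statistic intervals. Fold and −log10 p were solved for a whole pileup and a Poisson background within 0.001, which succeeded for 100% of peaks on arm 6q. Functions were tested on simulated data. The simulated backgrounds stopped below those of most blastema peaks and of every all-sample peak on arm 6q. The simulated pileups began above the lowest of the limb lists. With 1 list per group no test between conditions was possible, and no p-value is given. Python 3.11.15 with numpy 2.4.6, pandas 2.3.3 and scipy 1.17.1 was used.

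The block, the alternatives and the rule for named peaks were chosen with earlier results of these data known. The rule took the 5 peaks of highest fold of each group list, of each kind without an overlap, and of sites of all 3 groups, the widest peaks and those beside the edges (54 entries). Comparison with the preceding 40 Mb, the classes of strength and the stretches within the block were added after the data were seen.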

Additional observations from a re-analysis of the deposited data

How the results depend on the processing

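Of 55 values computed for 7 results under 11 alternatives, 35 stayed within the interval of the reported value. All values from the block split at 380 Mb, or with its edges moved inward by 5 Mb, stayed within. These alternatives use part of the same peaks at the same thresholds, so they add little to the count. At equal list length no computed value stayed within. With lists at the length of the shortest, blastema peaks per intact peak in the block were 1.06, activated peaks per 100 intact peaks 75.6, and the shares were 89.6% of activated peaks with an intact overlap, 85.8% of intact peaks with a blastema overlap, 76.9% of blastema peaks with an intact overlap and 66.9% of intact peaks with an activated overlap. At a fold of at least 5 blastema peaks per intact peak were 1.20, intact peaks with a blastema overlap 74.4% and blastema peaks with an intact overlap 59.1%. Among peaks with a −log10 q from 5 upward these were 2.84 blastema peaks per intact peak, 33.0% of blastema peaks with an intact overlap and a median intact width of 549 bases, which was 527 bases with peaks within 1000 bases merged. With 50% of each interval shared the shares were 70.8% of activated peaks with an intact overlap, 57.6% of intact peaks with a blastema overlap, 15.5% of blastema peaks with an intact overlap and 41.2% of intact peaks with an activated overlap, which was 46.1% by summit. In the strongest classes, added after the data were seen, 65.5% of blastema and 100% of activated peaks had an intact overlap. Equal length keeps the strongest peaks, so length and strength change together there; the cause was not tested. Under the 2 other overlap rules, the 2 filters and equal length, the shares with an overlap stayed above those of the rest of arm 6q, except blastema peaks with an activated overlap at equal length (62.7% against 63.8%).

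No paired analysis was possible because the lists pool the samples of a group, and for the same reason no setting leaves out a replicate. The limb lists are shallow, and a site missing from them is not shown to be closed.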
